A study of Homo sapiens with 6 samples.

Results

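Collagens, laminins and integrins were the genes whose symbols follow the naming scheme of collagen chains, laminin chains and integrin alpha and beta subunits. They were picked by name and no measured value entered that rule, but earlier results of these data were known when it was set. They numbered 82 of the 26475 genes in the table: 44 collagen chains, 12 laminin chains and 26 integrin subunits. Gene expression was measured by RNA sequencing in HepG2 cells, a liver cancer line with many hepatocyte features. In 3 libraries the cells expressed eGFP, a fluorescent reporter protein, and in the other 3 they expressed TAF2, part of the TFIID complex that binds core promoters. RNA came from exponentially growing cells in both groups. The sources used here do not give how the eGFP and TAF2 sequences were delivered, whether the cells were clones or pools, or whether replicates were separate cultures. A p-value therefore reflects only the scatter of these 6 libraries, which may be technical.

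Collagens are secreted proteins of helically wound chains that form fibrils, networks or membrane-bound and shed forms. Laminins are heterotrimers of an alpha, a beta and a gamma chain and, with network-forming collagen IV, build the basement membrane, the sheet on which epithelial cells rest. Integrins are transmembrane receptors made of an alpha and a beta subunit. The alpha subunit largely sets which matrix ligand is bound, and the beta subunit links it to talin, kindlin and the actin cytoskeleton. The normal liver sinusoid has little continuous basement membrane, and liver tumours often deposit more laminin and collagen IV.

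Library totals ran from 22276308 to 28024004 counts. TAF2, the check of the labels, was at 37.9 ± 2.31 CPM (counts scaled to a common library total; mean ± SD, n = 3) in eGFP and 48.6 ± 1.37 CPM (SD, n = 3) in TAF2 libraries, a 1.28-fold difference (log2 fold change 0.36, edgeR adjusted p = 1.44e-08). Over all tested genes 20.6% were higher (edgeR adjusted p under 0.05), so the rise in TAF2 alone is a weak check of the labels. Of 10 hepatocyte markers, all detected, 9 were lower with TAF2 (edgeR adjusted p under 0.05), where 22.4% of all tested genes were lower. The log2 fold changes of the 9 ran from -0.82 for APOA1 to -0.10 for TTR, whose groups overlapped. The summed level of the 10 was 49047 to 50505 CPM in eGFP and 39314 to 41132 CPM in TAF2 libraries. Of 10 fibroblast or stellate cell markers 5 had no count in any library, DCN, LUM and THY1 among them, and the list summed to 55.9 to 59.1 CPM in eGFP and 65.5 to 71.0 CPM in TAF2 libraries, most of it ACTA2. Of 10 endothelial markers 6 had no count, KDR and TEK among them, and the list summed to at most 2.37 CPM in any library. Of 4 tested markers of bile duct cells 2 were higher and 2 lower, where 20.6% of all tested genes were higher and 22.4% lower. The list, led by SPP1, summed to 878 to 894 CPM in eGFP and 1319.6 to 1324 CPM in TAF2 libraries. The part of these shifts in the results on matrix and integrin genes was not tested.

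Of the 82 genes, 35 passed the filter on low counts and were tested: 15 collagens, 7 laminins and 13 integrins. With TAF2, 12 were higher and 9 were lower at an adjusted p under 0.05, which is what "called" means here. That is 60.0% of the tested members, against 43.0% of all 12902 tested genes. By direction, 34.3% of the tested members were higher, against 20.6% of all genes, and 25.7% were lower, against 22.4%. Well-measured genes were called more often: among genes of at least 5 CPM in either group, 47.5% of 10452 were called, and of the members at that level 17 of 22 were called (77.3%). Of those 17, 9 were higher and 8 lower, against 23.4% of all such genes higher and 24.1% lower. The groups did not overlap in 23 of the 35 members (65.7%), against 50.6% of all tested genes. The median log2 fold change of the 35 was 0.11, against -0.0027 over all tested genes. Among called members, collagens were mostly higher (8 higher, 1 lower), integrins mostly lower (2 higher, 6 lower), and laminins divided (2 higher, 2 lower). These counts are descriptions, and whether the classes differ from each other was not tested. LAMC3 passed the filter only through its TAF2 libraries, so it had to differ, and its call carries no weight. Without it 11 members were higher, 1 of them a laminin. COL1A1 was above it in 2 of 3 eGFP libraries.

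**Figure D1:**
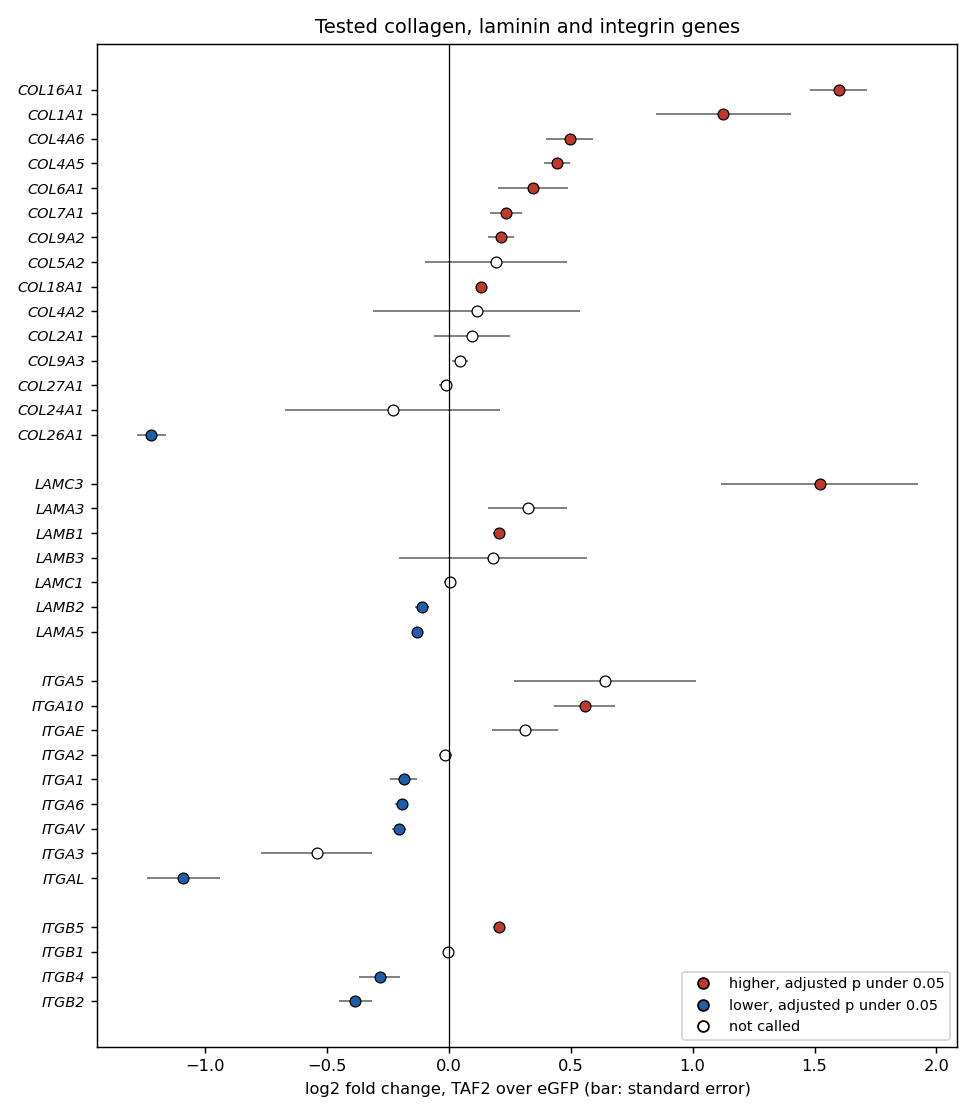
Log2 fold change of each tested member (TAF2 over eGFP, horizontal axis; bars are standard errors of the edgeR fit), with collagens, laminins, integrin alpha and integrin beta subunits in blocks from top to bottom. COL16A1 (1.60) is farthest to the right and COL26A1 (-1.22) farthest to the left, and most other called members lie within 0.6 of 0.

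Most of the called members moved by small amounts. Their median absolute log2 fold change was 0.28, against 0.23 over all called genes. COL16A1, COL1A1, LAMC3, COL26A1 and ITGAL changed by at least 2-fold, and no other called member changed by at least 1.5-fold, so 5 members passed each size, or 4 without LAMC3. Over all tested genes 2.95% were called with a change of at least 2-fold and 6.72% with at least 1.5-fold. Against a change of 1.5-fold, edgeR's glmTreat test called only COL16A1, COL26A1 and ITGAL of the 35.

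Collagen transcripts in these cells were led by COL18A1, COL27A1 and COL9A3, which held 85.6% of the summed collagen CPM in eGFP and 85.1% in TAF2 libraries. COL18A1 encodes a basement membrane collagen with heparan sulphate chains whose end fragment is endostatin, and hepatocytes are a known source of it. It held 324, 317 and 328 CPM in the eGFP libraries and 355, 359.6 and 349 CPM in the TAF2 libraries. Every TAF2 library was above every eGFP library, by a small step (log2 fold change 0.13 with SE 0.0229, adjusted p = 5.01e-06 by edgeR). COL18A1 shares its locus with SLC19A1, and without known strand use in counting their reads may not be fully separated. COL27A1, a fibrillar collagen known from cartilage, held 210.1, 217 and 218 CPM in the eGFP libraries and 217, 219.5 and 203 CPM in the TAF2 libraries. The groups overlapped, and the 95% interval of its log2 difference ran from -0.07 to 0.04. COL9A3 encodes a chain of collagen IX, which coats cartilage fibrils, and held 180.2, 180.0 and 189.8 CPM in the eGFP libraries and 194, 196 and 178 CPM in the TAF2 libraries. COL9A3 overlaps TCFL5, with the same limit on separating reads. Its groups overlapped too, with an interval of -0.02 to 0.11 (log2 fold change 0.05 with SE 0.0321, adjusted p = 0.258 by edgeR). Without TAF2 replicate 3 COL9A3 was called higher, at a log2 fold change of 0.09 and an edgeR adjusted p of 0.0169.

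COL9A2, the partner chain of COL9A3, held 26.1, 24.7 and 25.3 CPM in the eGFP libraries and 30.5, 29.2 and 28.8 CPM in the TAF2 libraries. Its TAF2 libraries all lay above its eGFP libraries (log2 fold change 0.22 with SE 0.0529, adjusted p = 0.000888 by edgeR). COL9A1, the remaining chain of collagen IX, had at most 4 counts in any library and was not tested. COL7A1, which forms the anchoring fibrils under squamous epithelia, held 16.7, 16.7 and 19.8 CPM in the eGFP libraries and 22, 20.6 and 20.2 CPM in the TAF2 libraries. The highest eGFP value came close to the lowest TAF2 value, and the groups did not overlap (log2 fold change 0.24 with SE 0.0671, adjusted p = 0.00390 by edgeR).

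Collagen IV is the network of the basement membrane, and its genes lie head to head in pairs. In the X-linked pair COL4A5 (chromosome X, 108439838 to 108697545, GRCh38.p14) and COL4A6 (chromosome X, 108155614 to 108439458) both chains rose. COL4A5 held 26.3, 26.4 and 26.2 CPM in the eGFP libraries and 34.3, 39.2 and 34.0 CPM in the TAF2 libraries. The eGFP libraries lay within 1 CPM of each other and below every TAF2 library (log2 fold change 0.44 with SE 0.0540, adjusted p = 5.04e-09 by edgeR). COL4A6 held 7.38, 7.47 and 7.14 CPM in the eGFP libraries and 9.16, 10.6 and 11.2 CPM in the TAF2 libraries. Its groups did not overlap either (log2 fold change 0.50 with SE 0.0953, adjusted p = 3.62e-05 by edgeR). The ratio of COL4A5 to COL4A6, each per kb of transcript, was 3.74 ± 0.0716 with eGFP and 3.64 ± 0.409 with TAF2 (SD, n = 3 each), with overlapping values. The other pairs were near or at 0: COL4A1 and COL4A4 had no count in any library, COL4A3 had at most 2, and COL4A2 was at 0.389 ± 0.167 and 0.427 ± 0.153 CPM. A count of 0 allows up to 0.135 CPM in the shallowest library.

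The 250 bases upstream of the RefSeq start sites of COL4A5 and COL4A6 that face each other are shown because both chains rose and are read in opposite directions from neighbouring starts. The starts have 379 bases between them, so the windows share 121 bases (chrX:108439588-108439708), printed in capitals, which appear in COL4A6 as the reverse complement. COL4A5 is on the plus strand at chrX:108439588-108439837 and COL4A6 on the minus strand at chrX:108439459-108439708. All sequences are from RefSeq on GRCh38.p14, 5′ to 3′ on the gene's strand.
COL4A5: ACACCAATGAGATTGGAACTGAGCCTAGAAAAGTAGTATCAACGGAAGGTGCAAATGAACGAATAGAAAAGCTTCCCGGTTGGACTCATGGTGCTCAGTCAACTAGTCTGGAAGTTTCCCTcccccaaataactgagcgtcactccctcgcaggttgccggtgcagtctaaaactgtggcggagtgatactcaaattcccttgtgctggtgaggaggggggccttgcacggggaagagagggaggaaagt
COL4A6: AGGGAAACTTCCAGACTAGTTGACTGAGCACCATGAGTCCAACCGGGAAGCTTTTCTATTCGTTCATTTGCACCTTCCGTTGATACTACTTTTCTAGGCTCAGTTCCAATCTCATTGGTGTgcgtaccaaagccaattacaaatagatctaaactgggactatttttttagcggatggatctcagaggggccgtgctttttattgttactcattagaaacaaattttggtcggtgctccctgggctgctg
Each window was searched on both strands for a TATA box (TATAAA), a GC box (GGGCGG) and a CCAAT box (CCAAT). The shared stretch has 2 CCAAT matches, and the COL4A6 window has 3 in all. Neither of these windows has a TATA or GC box match. The RefSeq table holds a further COL4A6 start within the gene, whose window (chrX:108438423-108438672) has 1 GC box match and no CCAAT match and is not printed. Over all 35116 windows of that length in the RefSeq table, 10.7% have a TATA box, 42.6% a GC box and 32.0% a CCAAT box. A match describes the letters and is no evidence of binding.

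COL16A1 and COL26A1 changed most among the collagens, in opposite directions. COL16A1 (chromosome 1, 31652263 to 31704017) encodes a fibril-associated collagen that collagen-binding integrins can recognise. It held 2.77, 3.51 and 4.09 CPM in the eGFP libraries and 11.1, 10.5 and 9.67 CPM in the TAF2 libraries. Every TAF2 library was above every eGFP library by more than 2-fold, and the fit gave a 3.03-fold rise (log2 fold change 1.60 with SE 0.117, adjusted p = 5.24e-15 by edgeR). COL26A1 (chromosome 7, 101362388 to 101559024) encodes a small collagen with an EMI domain, first described in testis and ovary. It held 31.5, 31.0 and 32.4 CPM in the eGFP libraries and 13.9, 13.9 and 13.0 CPM in the TAF2 libraries. The groups were far apart and tight, with a 2.33-fold fall (log2 fold change -1.22 with SE 0.0596, adjusted p = 9.29e-21 by edgeR).

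The window upstream of COL16A1, on the minus strand at chr1:31704018-31704267, is shown because this gene rose more than any other member, and capitals mark every match to the motifs named above.
COL16A1: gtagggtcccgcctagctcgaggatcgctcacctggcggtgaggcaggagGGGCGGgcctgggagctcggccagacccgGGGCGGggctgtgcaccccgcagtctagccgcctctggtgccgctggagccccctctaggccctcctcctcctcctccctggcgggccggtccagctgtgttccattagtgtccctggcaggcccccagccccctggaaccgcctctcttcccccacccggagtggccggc
It has 2 GC box matches and a GC content of 73.2%, where the median over all windows was 58.0%. Of the 35 tested members 25 had at least 1 window in the table. Of their 35 windows 23 had a GC box (65.7%), 4 a TATA box (11.4%) and 5 a CCAAT box (14.3%). The shares over all windows include genes that were not tested here, and some members had more than 1 window. The sets are therefore unlike, and a difference between them is no trait of the members.

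COL1A1, COL2A1, COL5A2 and COL24A1 of the fibrillar collagens and COL6A1 of the beaded filaments were low, unlike the fibrillar COL27A1. COL1A1, a chain of the main fibrillar collagen of scar and bone, held 0.848, 0.360 and 0.802 CPM in the eGFP libraries and 1.70, 1.49 and 1.32 CPM in the TAF2 libraries. It rose on few reads (log2 fold change 1.13 with SE 0.275, adjusted p = 0.000849 by edgeR), and its partner COL1A2 had at most 1 count in any library. COL6A1, of the beaded microfibrils around cells, held 3.28, 2.61 and 3.33 CPM in the eGFP libraries and 4.01, 3.81 and 3.96 CPM in the TAF2 libraries. Its groups did not overlap, but the call was marginal (log2 fold change 0.35 with SE 0.143, adjusted p = 0.0480 by edgeR) and was lost in 11 of 14 alternatives, including each of the 6 fits without a library, where the log2 fold change ran from 0.25 to 0.40 and the adjusted p from 0.0546 to 0.196. COL2A1, COL5A2 and COL24A1 were tested and not called, at 2.98 CPM or less in each group. Among fibroblast markers PDGFRB went from 7.87 ± 0.860 to 19.5 ± 0.674 CPM (log2 fold change 1.32, edgeR adjusted p = 1.4e-17), ACTA2 from 48.8 ± 2.60 to 47.3 ± 2.02 CPM (log2 fold change -0.05, edgeR adjusted p = 0.400), and POSTN and FAP had no count. The part of other cells in the COL1A1 and COL6A1 values was not tested. In bulk RNA, fewer cells of a type and less RNA per cell cannot be told apart.

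Laminin chains were dominated by LAMA5, LAMB1, LAMB2 and LAMC1, the chains of the laminins of mature epithelial and vascular basement membranes. LAMA5 held 99.5% of the laminin alpha CPM in eGFP and 99.4% in TAF2 libraries, and LAMC1 99.9% and 99.8% of the gamma CPM. With TAF2 the 2 abundant beta chains moved in opposite directions, LAMA5 fell slightly and LAMC1 stayed within a narrow interval around 0.

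LAMA5 (chromosome 20, 62309065 to 62367312) held 555, 544 and 557 CPM in the eGFP libraries and 513, 507 and 494 CPM in the TAF2 libraries. Every TAF2 library was below every eGFP library (log2 fold change -0.13 with SE 0.0216, adjusted p = 3.57e-06 by edgeR). LAMB1 (chromosome 7, 107923799 to 108003161), the beta chain of embryonic and many adult laminins, held 362, 361 and 378 CPM in the eGFP libraries and 422, 430.3 and 419 CPM in the TAF2 libraries. The TAF2 libraries were all higher, by 1.15-fold (log2 fold change 0.21 with SE 0.0229, adjusted p = 5.52e-10 by edgeR). LAMB2 (chromosome 3, 49121114 to 49133050), the alternative beta chain known from kidney, muscle and nerve, held 157, 147 and 155 CPM in the eGFP libraries and 138, 146 and 141 CPM in the TAF2 libraries. Here the lowest eGFP value was barely above the highest TAF2 value (log2 fold change -0.11 with SE 0.0285, adjusted p = 0.00151 by edgeR). LAMC1 (chromosome 1, 183023420 to 183145592), the gamma chain shared by most laminins, held 352, 343 and 345 CPM in the eGFP libraries and 343, 351 and 350.0 CPM in the TAF2 libraries. Its groups overlapped, and the 95% interval of the log2 difference ran from -0.04 to 0.05.

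Per kb of transcript, which allows levels of different genes to be compared, LAMB1 was at 64.1 ± 1.68 with eGFP and 74.0 ± 1.04 with TAF2 (CPM per kb, mean ± SD, n = 3 each). LAMB2 was at 27.0 ± 0.917 with eGFP and 25.0 ± 0.731 with TAF2. The ratio of LAMB1 to LAMB2 on that scale was 2.29, 2.43 and 2.42 in the eGFP libraries and 3.03, 2.91 and 2.93 in the TAF2 libraries. The values did not overlap, and the share of LAMB1 in laminin beta CPM went from 70.5% to 74.8%. The ratios given for these genes were chosen after their values were seen and carry no test. LAMA5 was at 48.3 ± 0.639 with eGFP and 44.2 ± 0.830 with TAF2 and LAMC1 at 43.9 ± 0.599 with eGFP and 44.1 ± 0.586 with TAF2 on the same scale.

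LAMA3 and LAMB3, chains known from the epidermis and other stratified epithelia, were low. LAMA3 held 2.51, 2.38 and 2.57 CPM in the eGFP libraries and 2.59, 3.34 and 3.39 CPM in the TAF2 libraries and was not called (log2 fold change 0.32 with SE 0.162, adjusted p = 0.104 by edgeR), but it was called without TAF2 replicate 1, at a log2 fold change of 0.44 and an edgeR adjusted p of 0.0358. LAMB3 was below 0.6 CPM in every library. LAMC3, a gamma chain found in few tissues, had 6, 5 and 7 counts in the eGFP libraries and 18, 23 and 14 counts in the TAF2 libraries, a log2 fold change of 1.52 given here with no test, since the gene passed the filter only where it was high. LAMA1, LAMA2 and LAMB4 had at most 3 counts in any library, and LAMA4 had none.

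**Figure D2:**
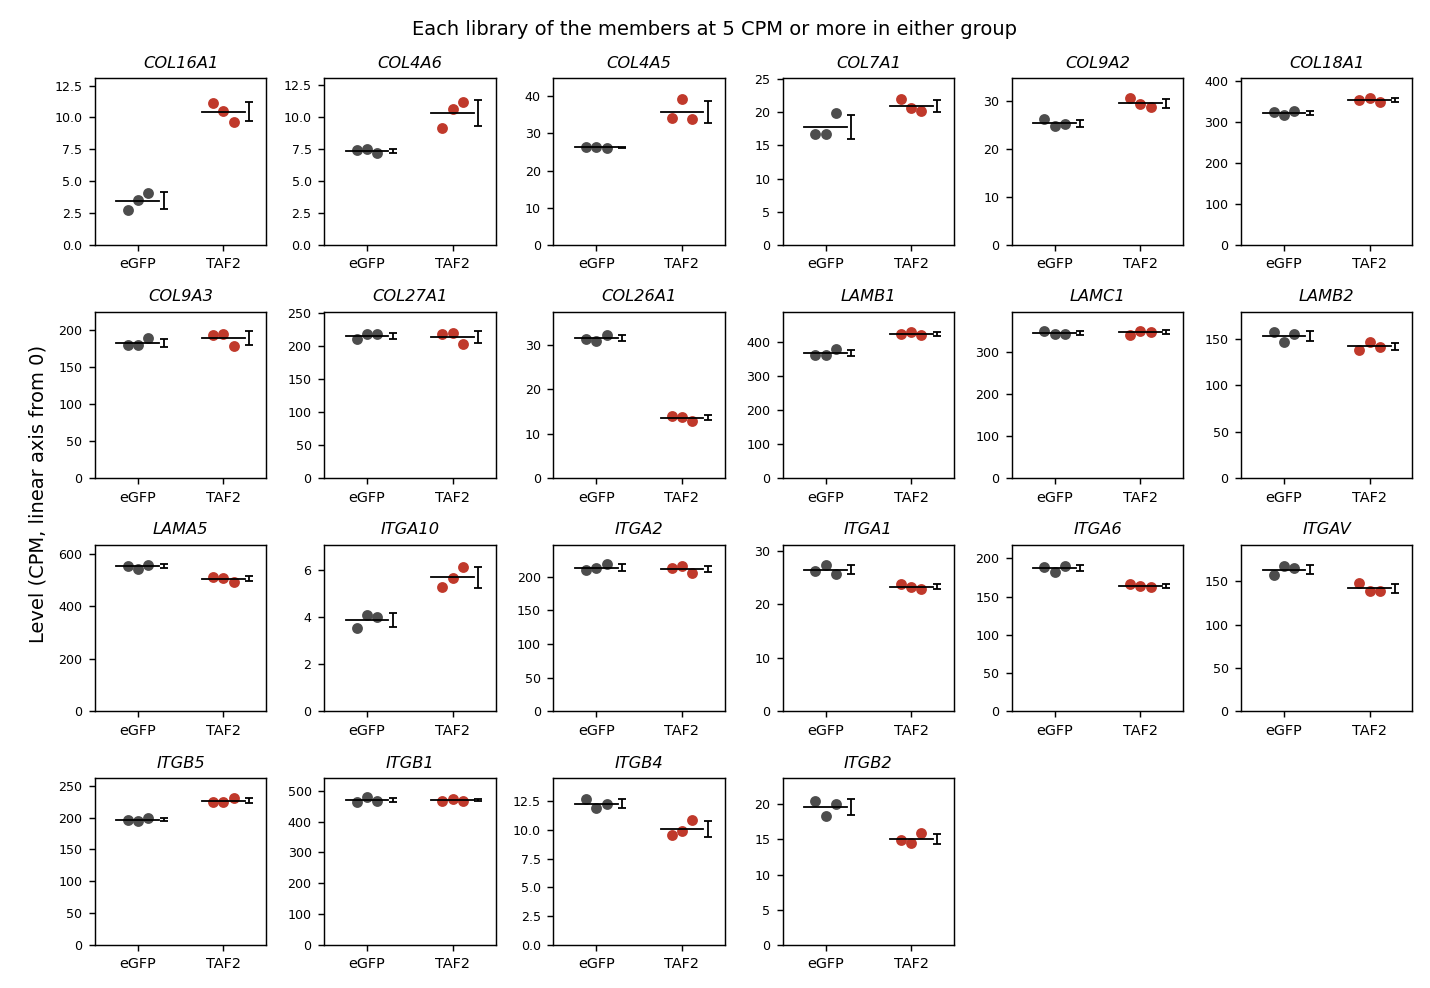
Level in each library (CPM, linear axis from 0) of the 22 members at 5 CPM or more in either group; points are libraries, horizontal lines means and brackets SD (n = 3). COL16A1 and COL26A1 separate by more than 2-fold, while LAMC1, ITGB1 and ITGA2 lie at the same height in both groups to within a few percent.

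Integrin alpha transcripts were mainly ITGA2, ITGA6 and ITGAV, which together held 93.1% of the summed alpha CPM in both groups. Of the 5 alpha subunits at 5 CPM or more, ITGA1, ITGA6 and ITGAV fell, ITGA10 rose and ITGA2 was not called.

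Among receptors for collagen, ITGA2 (chromosome 5, 52989352 to 53094779) encodes the subunit that with ITGB1 makes a collagen receptor of epithelial cells and platelets. It held 209, 213 and 219 CPM in the eGFP libraries and 214, 215 and 206 CPM in the TAF2 libraries. The groups overlapped, with a 95% interval of -0.06 to 0.04 for the log2 difference. ITGA1 (chromosome 5, 52787916 to 52959209), of a receptor that binds collagen IV well, held 26.3, 27.4 and 25.7 CPM in the eGFP libraries and 23.8, 23.2 and 22.8 CPM in the TAF2 libraries. Every TAF2 library was lower (log2 fold change -0.19 with SE 0.0549, adjusted p = 0.00550 by edgeR). The gene PELO lies inside ITGA1, and reads of the pair may not be fully separated. ITGA10, of a receptor best known in cartilage, held 3.54, 4.09 and 4.01 CPM in the eGFP libraries and 5.27, 5.65 and 6.14 CPM in the TAF2 libraries and rose from this low level (log2 fold change 0.56 with SE 0.125, adjusted p = 0.000296 by edgeR). ITGA11 had no count in any library.

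Among receptors for laminin, ITGA6 (chromosome 2, 172427336 to 172506459) is the subunit that pairs with ITGB1 in many cells and with ITGB4 in hemidesmosomes, the anchors of epithelia to laminin. It held 189, 182 and 190.4 CPM in the eGFP libraries and 166, 163 and 162 CPM in the TAF2 libraries. All TAF2 libraries were below all eGFP libraries, a 1.14-fold fall (log2 fold change -0.19 with SE 0.0257, adjusted p = 3.83e-08 by edgeR). ITGB4 held 12.7, 11.9 and 12.3 CPM in the eGFP libraries and 9.53, 9.89 and 10.9 CPM in the TAF2 libraries. It moved the same way as its partner and its groups did not overlap (log2 fold change -0.28 with SE 0.0833, adjusted p = 0.00528 by edgeR). GALK1 overlaps the ITGB4 locus, with the same limit on separating reads. ITGA3, another laminin-binding subunit, was low in both groups, with 1.48, 1.62 and 1.72 CPM in the eGFP libraries and 1.01, 1.14 and 1.14 CPM in the TAF2 libraries. The groups did not overlap, yet the adjusted p missed the threshold (log2 fold change -0.54 with SE 0.227, adjusted p = 0.0507 by edgeR). ITGA7 had at most 17 counts in any library and was not tested.

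ITGAV (chromosome 2, 186590056 to 186680901) encodes the alpha subunit of receptors for vitronectin and fibronectin and of activators of latent TGF-beta. It held 158, 168 and 165 CPM in the eGFP libraries and 148, 138 and 139 CPM in the TAF2 libraries. Every TAF2 library was lower than every eGFP library (log2 fold change -0.21 with SE 0.0287, adjusted p = 1.41e-07 by edgeR). ITGB5 (chromosome 3, 124761948 to 124901418), which pairs only with ITGAV and binds vitronectin, went the other way, with 197, 194 and 199 CPM in the eGFP libraries and 225, 224 and 231 CPM in the TAF2 libraries. The TAF2 libraries were all higher (log2 fold change 0.21 with SE 0.0245, adjusted p = 2.79e-09 by edgeR). Per kb, the ratio of ITGAV to ITGB5 was 0.499, 0.538 and 0.515 in the eGFP libraries and 0.408, 0.384 and 0.375 in the TAF2 libraries. The other known partners of ITGAV were scarce apart from ITGB1: ITGB3 had at most 6 counts, ITGB8 at most 3 and ITGB6 none. ITGA5, the main fibronectin receptor subunit, was below 1 CPM in every library and was not called (log2 fold change 0.64 with SE 0.373, adjusted p = 0.168 by edgeR).

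ITGB1 (chromosome 10, 32900318 to 32958230), the common beta subunit of collagen, laminin and fibronectin receptors, held 465, 479 and 467 CPM in the eGFP libraries and 467, 474 and 467 CPM in the TAF2 libraries. Its groups overlapped, and the 95% interval of the log2 difference ran from -0.05 to 0.04. It held 67.3% of integrin beta CPM in eGFP and 65.1% in TAF2 libraries, while ITGB5 held 28.1% and 31.4%. The ratio of ITGB5 to ITGB1 per kb was 0.362 ± 0.0101 with eGFP and 0.418 ± 0.00901 with TAF2 (SD, n = 3 each), without overlap.

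Subunits of leukocyte integrins were present at low levels, and both chains of the lymphocyte receptor LFA-1, ITGAL and ITGB2, fell. ITGAL held 4.35, 5.26 and 4.89 CPM in the eGFP libraries and 2.31, 1.88 and 2.57 CPM in the TAF2 libraries. Every TAF2 library was below every eGFP library, by 2.13-fold in the fit (log2 fold change -1.09 with SE 0.150, adjusted p = 7.9e-08 by edgeR). ITGB2 held 20.5, 18.4 and 20.0 CPM in the eGFP libraries and 14.9, 14.5 and 15.9 CPM in the TAF2 libraries, again without overlap (log2 fold change -0.38 with SE 0.0672, adjusted p = 8.76e-06 by edgeR). Of 10 leukocyte markers, PTPRC, CD3E and MS4A1 had no count in any library. Of the 5 tested, 1 was higher and 2 lower, where 20.6% of all tested genes were higher and 22.4% lower. The list summed to 1941 to 2059 CPM in eGFP and 2272 to 2323 CPM in TAF2 libraries, nearly all of it lysozyme, LYZ. LYZ was the marker that rose, from 1941 ± 58.1 to 2254 ± 27.9 CPM (log2 fold change 0.22, edgeR adjusted p = 6.35e-12). CD68, a lysosomal protein, went from 47.2 ± 1.76 to 35.8 ± 1.16 CPM. CD14, from 2.07 ± 0.338 to 1.03 ± 0.259 CPM, fell as well, and SPI1 and CSF1R were below 0.1 CPM on average. The part of leukocyte RNA in the ITGAL and ITGB2 values was not tested. ITGAE, whose product pairs with ITGB7 in tissue lymphocytes, held 3.61, 4.36 and 3.29 CPM in the eGFP libraries and 4.46, 4.32 and 5.10 CPM in the TAF2 libraries and was not called (log2 fold change 0.31 with SE 0.135, adjusted p = 0.0596 by edgeR), but was called without eGFP replicate 2, at 0.43 and an edgeR adjusted p of 0.0189. It overlaps HASPIN and P2RX5, and ITGB7 itself had at most 6 counts.

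**Figure D3:**
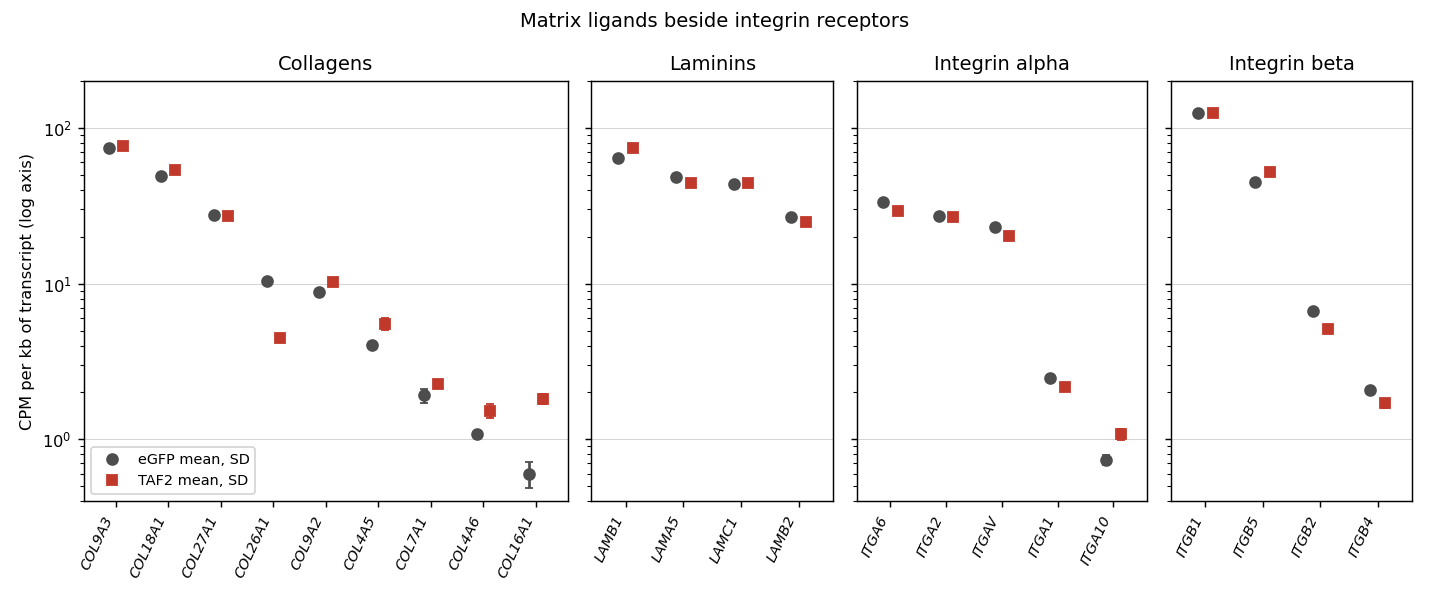
CPM per kb of transcript (log axis, mean and SD of 3 libraries, SD mostly smaller than the symbol) of collagens, laminins, integrin alpha and integrin beta subunits at 5 CPM or more in either group, ordered within a panel by the eGFP mean. ITGB1 is highest, at about 124, with COL9A3 and LAMB1 next, and within the collagen panel COL26A1 drops below COL9A2 and COL4A5 while COL16A1 passes COL4A6.

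Set beside each other per kb, ligand and receptor transcripts spanned similar ranges. COL9A3 was highest among the collagens at 73.8 ± 2.25 with eGFP and 76.3 ± 3.89 with TAF2 (CPM per kb, mean ± SD, n = 3 each), and COL18A1 followed at 49.0 ± 0.835 with eGFP and 53.8 ± 0.843 with TAF2. COL27A1 was at 27.6 ± 0.525 with eGFP and 27.4 ± 1.17 with TAF2. The collagen IV chains were far lower, with COL4A5 at 4.06 ± 0.0178 with eGFP and 5.53 ± 0.452 with TAF2 and COL4A6 at 1.09 ± 0.0253 with eGFP and 1.53 ± 0.153 with TAF2. For the collagen receptors, ITGA2 was at 27.2 ± 0.619 with eGFP and 26.9 ± 0.632 with TAF2 and ITGA1 at 2.46 ± 0.0781 with eGFP and 2.17 ± 0.0444 with TAF2, so ITGA2 was the main collagen-binding alpha transcript in both groups. For the laminin receptors, ITGA6 was at 33.3 ± 0.761 with eGFP and 29.2 ± 0.362 with TAF2, below each of LAMA5, LAMB1 and LAMC1, and ITGA3 was at 0.329 ± 0.0256 with eGFP and 0.225 ± 0.0150 with TAF2. ITGAV was at 23.2 ± 0.739 with eGFP and 20.2 ± 0.729 with TAF2 and ITGB5 at 44.9 ± 0.592 with eGFP and 51.8 ± 0.765 with TAF2. ITGB1 was at 124 ± 2.05 with eGFP and 124 ± 1.08 with TAF2, above the sum of the alpha subunits that pair with it. Lengths were matched for 33 of the 35 tested members.

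Summed over all members of a class, collagen CPM was 842 ± 14.9 with eGFP and 889 ± 27.8 with TAF2 (SD, n = 3 each), with overlapping values. Laminin CPM was 1422 ± 21.7 and 1423 ± 15.2. Integrin CPM was 1305 ± 12.0 and 1277 ± 6.12, without overlap. These sums carry no test.

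**Figure D4:**
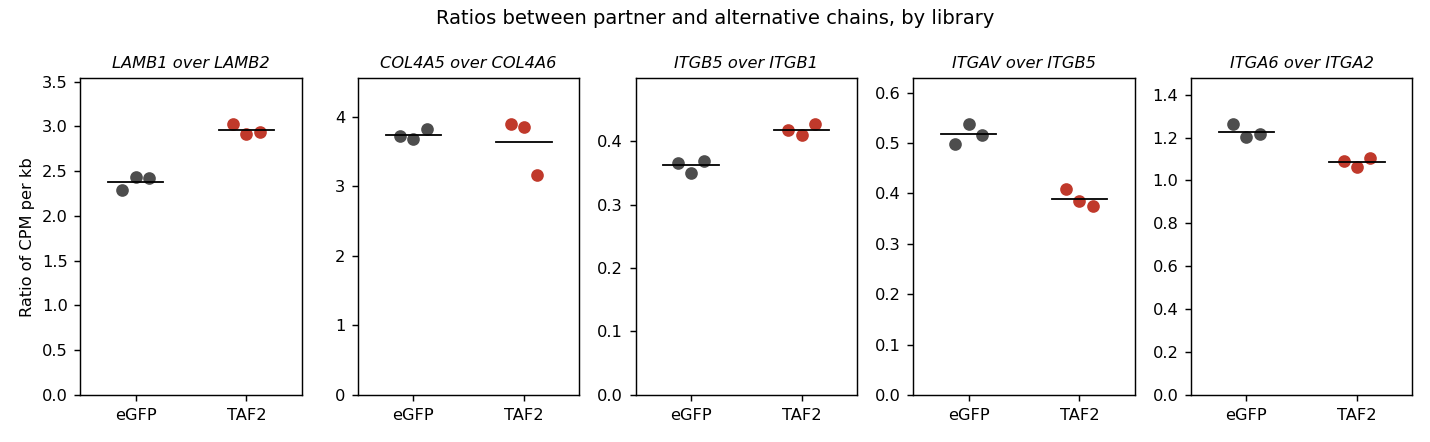
Ratio of CPM per kb between chains that are alternatives or partners, in each library (points) with the group mean (line), on linear axes from 0. LAMB1 over LAMB2 and ITGB5 over ITGB1 are higher in all TAF2 libraries, ITGAV over ITGB5 and ITGA6 over ITGA2 lower, and COL4A5 over COL4A6 overlaps.

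The ratio of ITGA6 to ITGA2, the main laminin-binding against the main collagen-binding alpha transcript, was 1.27, 1.20 and 1.22 in the eGFP libraries and 1.09, 1.06 and 1.10 in the TAF2 libraries. ITGA6 was lower in all TAF2 libraries, while ITGA2 was not called.

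Genes that act with these chains were taken from lists of known partners. Shares called are set against 43.0% of all tested genes, while genes of at least 5 CPM were called more often (47.5%). Levels below are mean ± SD over 3 libraries, from eGFP to TAF2, values in brackets are log2 fold changes, and every gene named as risen or fallen passed the edgeR test. Of 19 tested enzymes and chaperones of collagen folding and modification, 7 were higher and 4 lower, a share of 57.9% called against 43.0% of all tested genes. COLGALT2, which adds galactose to collagen hydroxylysine, rose from 48.8 ± 2.05 to 78.0 ± 0.893 CPM (0.67), and the prolyl hydroxylase family member P3H3 from 44.0 ± 2.32 to 56.9 ± 0.464 CPM (0.37). The lysyl hydroxylases PLOD2 (-0.34) and PLOD1 (-0.19) fell. Of 9 tested genes of collagen maturation and crosslinking 2 were higher and 3 lower (55.6% called, against 43.0%). The crosslinking oxidase LOX fell from 330.5 ± 19.8 to 226 ± 6.79 CPM (-0.55, edgeR adjusted p = 8.98e-06) while its relative LOXL4 rose from 10.4 ± 1.07 to 21.9 ± 0.791 CPM (1.07). ADAMTS2, which trims procollagen ends, fell from 6.63 ± 0.592 to 2.79 ± 0.0746 CPM (-1.25), and the protease FURIN rose (0.29).

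Partners of laminin and collagen IV in the basement membrane fell more often than they rose: of 9 tested, 7 were lower and 1 higher, with a median log2 fold change of -0.21, where 22.4% of all tested genes were lower. Nidogen, NID1, which links laminin to collagen IV, went from 420.2 ± 5.16 to 359 ± 2.98 CPM (-0.23, edgeR adjusted p = 1.4e-11). FREM1 fell from 146 ± 2.73 to 87.1 ± 1.13 CPM (-0.74), the heparan sulphate proteoglycan agrin, AGRN, from 549 ± 19.0 to 475 ± 5.11 CPM (-0.21), and FBLN1 from 312 ± 4.97 to 281 ± 5.26 CPM (-0.15). The member that rose was perlecan, HSPG2, from 301 ± 8.50 to 329 ± 3.75 CPM (0.13). It was named after its value was seen.

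A list of matrix receptors other than integrins also held tetraspanins, CD151 and CD9 among them, so its counts do not describe matrix receptors alone. Of its 8 tested genes 3 were higher and 3 lower (75.0% called, against 43.0% of all tested genes). BCAM, which binds the LAMA5 chain, fell from 255 ± 5.43 to 169 ± 4.19 CPM (-0.59, edgeR adjusted p = 1.02e-22). CD151, a tetraspanin that associates with laminin-binding integrins, fell from 131 ± 7.10 to 105 ± 2.48 CPM (-0.32), and dystroglycan, DAG1, from 182 ± 3.90 to 165 ± 1.88 CPM (-0.14). The tetraspanin CD9 rose from 4.70 ± 0.449 to 8.01 ± 0.152 CPM (0.76). In the hemidesmosome list, 4 of 5 tested members were higher and CD151 was lower. Over all tested genes, 20.6% were higher and 22.4% lower. Plectin, PLEC, which ties ITGB4 to keratin, rose from 325 ± 4.36 to 383 ± 12.2 CPM (0.24), as did KRT8 (0.25) and KRT18 (0.24). The listed keratins KRT5, with no count, and KRT14, at 0.0123 CPM or less on average, were not tested.

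On the inner side of the membrane, 7 of 13 tested integrin activators and inhibitors were higher and 2 lower (69.2% called, against 43.0% of all tested genes). Filamin, FLNA, which competes with talin for beta tails, rose from 976 ± 22.9 to 1283 ± 16.9 CPM (0.39), talin, TLN1, went from 415 ± 5.55 to 480.2 ± 4.50 CPM (0.21) and the kindlin FERMT2 from 60.3 ± 2.38 to 71.9 ± 1.20 CPM (0.25). Of 26 tested adhesion plaque genes 9 were higher and 4 lower. That is 50.0% called, against 43.0% of all tested genes and close to the 47.5% of those of at least 5 CPM. SRC rose from 147 ± 4.57 to 184 ± 2.17 CPM (0.33) and TNS4, a tensin that binds beta tails, from 20.6 ± 1.57 to 32.4 ± 1.01 CPM (0.65). The largest log2 fold change of this list was that of TNS1, which rose from 31.2 ± 2.99 to 88.5 ± 5.99 CPM (1.51). TNS1 was named after its value was seen. The integrin-linked kinase ILK fell from 102 ± 3.00 to 77.9 ± 2.98 CPM (-0.38) and CSRP1 from 60.6 ± 1.09 to 45.9 ± 1.15 CPM (-0.40). Of 16 tested matrix proteases and their inhibitors 4 were higher and 5 lower (56.2% called, against 43.0%). MMP2, among the 4, went from 0.162 ± 0.215 to 0.768 ± 0.197 CPM. Its eGFP mean lay below the filter level of 0.397 CPM, so it passed mainly where it was high, and its call carries no weight. The plasminogen activator PLAU fell from 7.12 ± 0.349 to 2.94 ± 0.100 CPM (-1.27), while the cathepsin CTSL (0.41) and TIMP2 (0.37) rose.

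**Figure D5:**
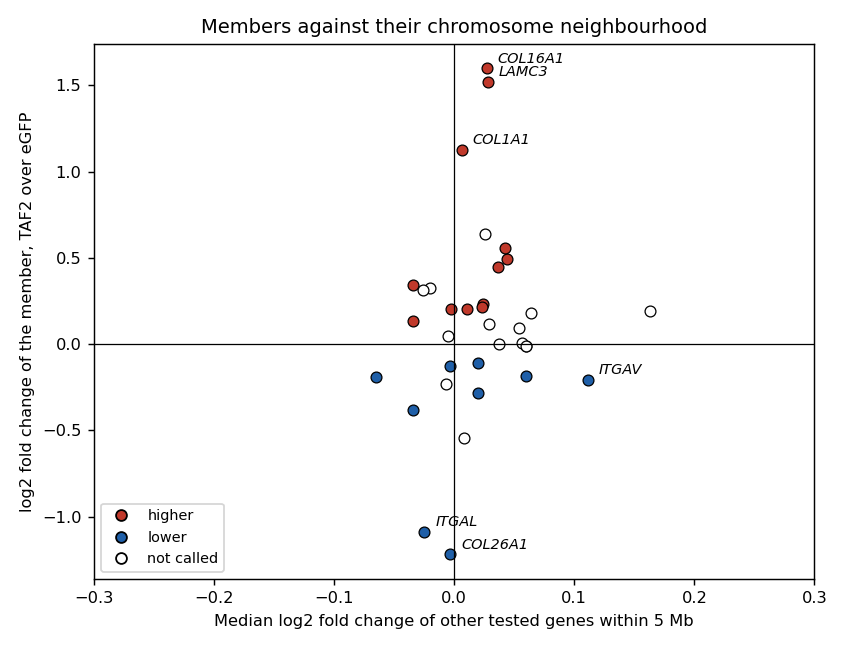
Log2 fold change of each tested member (vertical axis) against the median of the other tested genes starting within 5 Mb of it (horizontal axis). The neighbourhood medians lie between -0.07 and 0.16, a narrower range than that of the members, as medians over many genes vary less than single genes. ITGAV lies below 0 in a neighbourhood above 0.

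Each member was also set beside its chromosome neighbourhood. The 35 tested members lie on 15 chromosomes, 0 of them on chromosome 4 or 11, which one alternative scaling leaves out. The median log2 fold change of the other tested genes within 5 Mb ran from -0.07 to 0.16, over 17 to 159 genes. Each of the 21 called members was farther from 0 than its neighbourhood median, and 7 had the opposite sign. Called members were picked for lying away from 0, while a median over many genes lies near it. The outcome was thus largely set beforehand and does not measure independence from the region. The same share over all called genes was not computed. ITGAV (-0.21) stood in a neighbourhood at 0.11 over 25 genes, and ITGA6 (-0.19) in one at -0.07 over 46 genes. Around COL16A1 the median was 0.03 over 114 genes, and around COL26A1 -0.0033 over 111.

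The remaining 47 genes did not pass the filter. In 15 of them no library held a count: COL4A1, COL4A4, COL6A5, COL6A6, COL8A1, COL11A1, COL20A1, COL22A1, COL25A1, LAMA4, ITGA4, ITGA8, ITGA11, ITGAD and ITGB6. The other 32 had between 1 and 17 counts in their highest library, the top ones being ITGA7, COL11A2 (16) and COL6A2 (13). COL3A1 and COL1A2, the usual fibrillar partners of fibroblasts, had at most 1 count.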

How the data were processed

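The deposited values are expected counts for each gene in 6 libraries, with column sums that differ, so the authors left them without normalization to a common depth. The submitters' processing notes name RSEM and hg38; per the labels' protocols the libraries were made with a TruSeq RNA kit. For the aligner, annotation release and strand setting the entry is: not given in the sources used here. Columns were matched to samples by name. All 6 columns were rounded to integers, and filterByExpr chose the genes to test (about 10 counts, 0.397 CPM, in 3 libraries). These were scaled by TMM and tested with edgeR 4.0.16 (glmQLFit robust, glmQLFTest, group alone; R 4.3.3), with Benjamini-Hochberg adjustment over all 12902 tested genes and a threshold of 0.05; the method was tested on simulated data. The simulated data held few changed genes and 1 level of scatter for all genes. They do not show how the method behaves where many genes change, as here. A fold change is TAF2 over eGFP. CPM use the scaled library sizes. Intervals are 95% intervals from the edgeR standard error. Lengths are those of the longest GENCODE transcript matched to a listed accession, so levels per kb are approximate. Positions are from RefSeq on GRCh38.p14 and cover 35 of 35 tested members. No library was a copy of another: within groups the chi-square divided by its degrees of freedom was 1.98 to 5.91. The members, the lists and their roles were chosen with earlier results of these data known. Members of at least 5 CPM in either group have each library given; in each list up to 4 called genes of at least 5 CPM with the smallest p are named, and some items are not reported here. The limit for a count of 0 is 3 counts and covers counting error only. Alternatives were upper-quartile and DESeq2 scaling, TMM without chromosomes 4 and 11 (shifted as a whole in earlier results of these data), DESeq2 1.42.0, limma-voom (limma 3.58.1), glmTreat against 1.5-fold, other filters, a replicate block and leaving out each library.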

Additional observations from a re-analysis of the deposited data

How the results depend on the processing

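Of the 21 called members, 20 kept their direction and stayed past the threshold wherever they were tested under the 14 alternatives other than glmTreat. COL6A1 did not. LAMC3 is among the 20, but it passed the filter only where it was high, so its calls carry no weight. It gave no value with at least 1 CPM in 3 libraries. Against 1.5-fold, glmTreat called 373 of all genes, 1 member higher and 2 lower, with 2 collagens, 0 laminins and 1 integrin. Under the other alternatives 11 to 13 members were higher and 9 or 10 lower. Leaving out each library gave 11 to 12 higher, 9 lower and 4800 to 5288 called genes in all. Members not called in any of these fits changed sign around 0: ITGB1 was at 0.0117 with upper-quartile scaling, 0.0018 with DESeq2 size factors, 0.0019 by DESeq2 and 0.0082 without a filter; COL27A1 (0.0021) and ITGA2 (0.0003) with upper-quartile scaling; and LAMC1 at -0.0063 with TMM without chromosomes 4 and 11. Leaving out each library, the log2 fold change ran from -0.0078 to 0.0173 for ITGB1, -0.031 to 0.0244 for COL27A1, -0.0252 to 0.0066 for ITGA2, -0.6346 to 0.0247 for COL24A1, -0.1988 to 0.4051 for COL4A2 and -0.0257 to 0.4961 for COL5A2; the cause was not tested. ITGA3 was called at -0.55 with TMM without chromosomes 4 and 11 (edgeR adjusted p = 0.0464) and at -0.54 with at least 1 CPM in 3 libraries (0.0472), and ITGAE at 0.33 with upper-quartile scaling (0.0469). The replicate block called 5250 genes, 11 members higher and 9 lower. The pairing check gave correlations of -0.12, -0.27 and -0.17 between same-numbered libraries and -0.03 to 0.17 between the others. No library correlated best with its own number. With 3 libraries per group this check cannot exclude a shared batch or culture, and the labels give no link beyond the number. Genes that did not reach about 10 counts in 3 libraries were left out of the reported fit, and their differences are not reported.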
